A study of Mus musculus with 16 samples.

Results

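The genes described here encode the proteasome, its activators, the ubiquitin-conjugating enzymes and the ubiquitin C-terminal hydrolases of the mouse. They were taken by symbol: every probe set whose platform annotation gave exactly 1 gene symbol beginning with Psma, Psmb, Psmc, Psmd, Psme, Ube2 or Uch was included, except those of the interferon-inducible subunits Psmb8 and Psmb9. This gave 63 genes of the 8251 with a single-symbol probe set, measured by 82 probe sets. Each gene was read from its probe set with the highest mean over the 16 arrays. The 63 genes comprise 15 subunits of the core particle (7 alpha and 8 beta), 20 genes of the regulatory cap (6 ATPases and 14 others), 3 activators, 21 conjugating enzymes and 2 hydrolases. The remaining 2, Psmc3ip and Psme3ip1, share only the prefix: Psmc3ip encodes a meiotic recombination factor and Psme3ip1 a protein that binds an activator. They were left out of the class summaries.

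The study asked how far expression measurements vary between replicates and between sites, using RNA of adult C57/B6 mouse retina and of mouse cortex taken at postnatal day 1, on 1-colour microarrays of short DNA probes. At the first site 5 arrays were hybridised with retina RNA and 5 with cortex RNA, and at a further laboratory, named site 2, 3 with retina RNA and 3 with cortex RNA. The retina pool came from 350 mice and the cortex pool from 19 mice according to the first-site descriptions, and the cortex donors are given as C57/B6 there but as Swiss-Webster in the design text. Organ and age therefore differ together between the tissues, strain possibly too, and their parts cannot be told apart. No group carries an engineered allele or a drug treatment. The first-site arrays of a tissue are aliquots of a single pool and the site 2 arrays are described as technical replicates, so every p-value below measures the technical spread between arrays and not the spread between animals. In pooled tissue RNA, fewer cells of a type and less RNA per cell cannot be told apart.

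Proteins marked with ubiquitin are degraded by the proteasome. An activating enzyme (E1) loads ubiquitin, a conjugating enzyme (E2) carries it and a ligase (E3) directs it to the substrate. The cap binds the chain, removes it, and threads the unfolded protein through the ring of alpha subunits into the chamber formed by the beta subunits, where peptide bonds are cut. Neurons depend on this system for synaptic turnover, and photoreceptors for the disposal of misfolded phototransduction proteins.

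Array medians of the deposited intensities ran from 45.7 to 216, and summed intensities from 2478885 to 8639518. Levels are therefore given as scaled intensities, with each array's median set to 100, and differences as log2(intensity + 16) after centring each array on its median, retina minus cortex unless stated otherwise. Because a probe set's brightness depends on its sequence, levels are compared between groups and never between genes. The highest of 13 no-target control probe sets on each array served as a background floor, which 68.5% to 78.8% of probe sets exceeded. Of the 63 genes, 54 (85.7%) had a mean signal above the median of all probe sets. The labels of the tissues held against their markers: all 7 measured retina identity genes were higher in retina and all 6 measured newborn cortex identity genes were lower in retina, at both sites. At site 2, cortex replicate 2 was the dimmest array and stood apart from the other 2 cortex arrays there, so site 2 tissue differences are given with all arrays and, for the genes described there by array, also without it.

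The promoter sequences of 5 genes are shown so that genes with small and large tissue differences can be read side by side with the motifs known for this system. They are taken from RefSeq (build GRCm38.p6), span 250 bases before to 50 bases after the annotated start, and are printed 5′ to 3′ on the gene's strand with searched motifs in capitals. Psmb5 (chr14:54617946-54618245, minus strand) and Psmb6 (chr11:70525107-70525406, plus strand) encode catalytic core subunits. Psmd13 (chr7:140882144-140882443, plus strand) encodes the cap subunit with the largest decrease at the first site, and Ube2s (chr7:4812291-4812590, minus strand) and Uchl1 (chr5:66675871-66676170, plus strand) encode enzymes whose retina levels were less than those of cortex by more than 2-fold at the first site.
Psmb5: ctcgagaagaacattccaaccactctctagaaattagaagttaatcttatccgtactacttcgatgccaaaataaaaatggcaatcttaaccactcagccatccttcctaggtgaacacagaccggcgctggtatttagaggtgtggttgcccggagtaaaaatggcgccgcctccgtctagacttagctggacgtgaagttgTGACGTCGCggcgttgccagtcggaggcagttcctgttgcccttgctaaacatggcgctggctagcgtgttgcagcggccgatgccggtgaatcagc
Psmb6: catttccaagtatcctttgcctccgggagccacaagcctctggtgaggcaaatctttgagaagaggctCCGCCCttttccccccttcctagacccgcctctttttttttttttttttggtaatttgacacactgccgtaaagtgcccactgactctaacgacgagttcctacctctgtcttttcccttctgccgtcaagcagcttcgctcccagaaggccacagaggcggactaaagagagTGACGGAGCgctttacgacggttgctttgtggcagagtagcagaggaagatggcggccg
Psmd13: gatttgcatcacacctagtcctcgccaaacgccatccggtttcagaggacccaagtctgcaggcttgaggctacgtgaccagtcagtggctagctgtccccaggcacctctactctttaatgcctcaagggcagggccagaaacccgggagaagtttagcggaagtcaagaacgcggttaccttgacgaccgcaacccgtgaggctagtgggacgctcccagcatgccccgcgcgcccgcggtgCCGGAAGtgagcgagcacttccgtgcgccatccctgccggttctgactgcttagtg
Ube2s: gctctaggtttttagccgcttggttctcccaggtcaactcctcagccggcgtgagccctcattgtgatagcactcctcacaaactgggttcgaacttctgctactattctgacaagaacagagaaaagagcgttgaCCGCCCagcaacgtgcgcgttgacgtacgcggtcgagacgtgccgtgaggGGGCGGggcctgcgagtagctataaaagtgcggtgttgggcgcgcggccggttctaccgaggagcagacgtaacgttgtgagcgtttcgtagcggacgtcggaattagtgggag
Uchl1: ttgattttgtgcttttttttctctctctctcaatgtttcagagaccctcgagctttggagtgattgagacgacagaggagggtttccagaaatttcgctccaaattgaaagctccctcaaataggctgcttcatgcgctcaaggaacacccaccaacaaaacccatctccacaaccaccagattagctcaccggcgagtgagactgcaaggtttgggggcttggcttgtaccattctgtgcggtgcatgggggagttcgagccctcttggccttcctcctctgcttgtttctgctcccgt

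RefSeq gave a promoter for 52 of the 63 genes, and 5 motifs were searched on both strands, each counted on its own, also where matches overlap. TGACNNNGC is the letters of the antioxidant element, which the proteasome activator Nfe2l1 and its relative Nfe2l2 bind. It was present in 9 of the 52 promoters (17.3%), against 14.0% of 27025 genes. It began at position -47 from the start site in Psmb5 and at -9 in Psmb6. CCGGAAG, the core letters of an ETS factor element, was present in 19 of the 52 promoters (36.5%) and in 9.93% of all genes. The ETS letters stood in 9 of 17 cap promoters, among them Psmd13 (position -6) and the 3 ATPase genes Psmc1, Psmc2 and Psmc6, but in 1 of 12 core promoters, that of Psma6. GGGCGG, the GC box, was present in 37 of the 52 promoters (71.2%) against 38.2% of all genes, and in 15 of the 16 conjugating enzyme promoters. Ube2s held it at 2 places, positions -114 and -64. CCAAT, the CCAAT box, stood in 19 promoters (36.5%, against 41.1% of all genes) and TTTGAA, the cell cycle homology region, in 7 (13.5%, against 20.2%). None of the 5 motifs was found in the Uchl1 window. These matches describe letters only.

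At the first site, most of the genes that differed were lower in adult retina than in newborn cortex. The limma test, adjusted over all probe sets, called 30 of the 63 genes, 5 higher and 25 lower in retina. Over all 12422 probe sets 47.1% were called, 21.9% higher and 25.2% lower. Among the probe sets above the median signal 69.0% were called, 33.4% higher and 35.6% lower, whereas of the 54 genes above it 4 were called higher and 24 lower. The median log2 difference was -0.17 over the 63 genes and -0.05 over all probe sets. The median of the absolute differences was 0.28 over the 63 genes and 0.31 over all probe sets. Above the median signal it was 0.27 over the 54 genes and 0.46 over all probe sets there. In all, 3 genes (Uchl1, Ube2e3 and Ube2s) were called with a difference of at least 2-fold, a size reached by 15.1% of all probe sets. The arrays of the tissues were fully separated for 23 of the 63 genes, 3 higher and 20 lower, and for 37.9% of all probe sets, 17.4% higher and 20.4% lower.

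**Figure D1:**
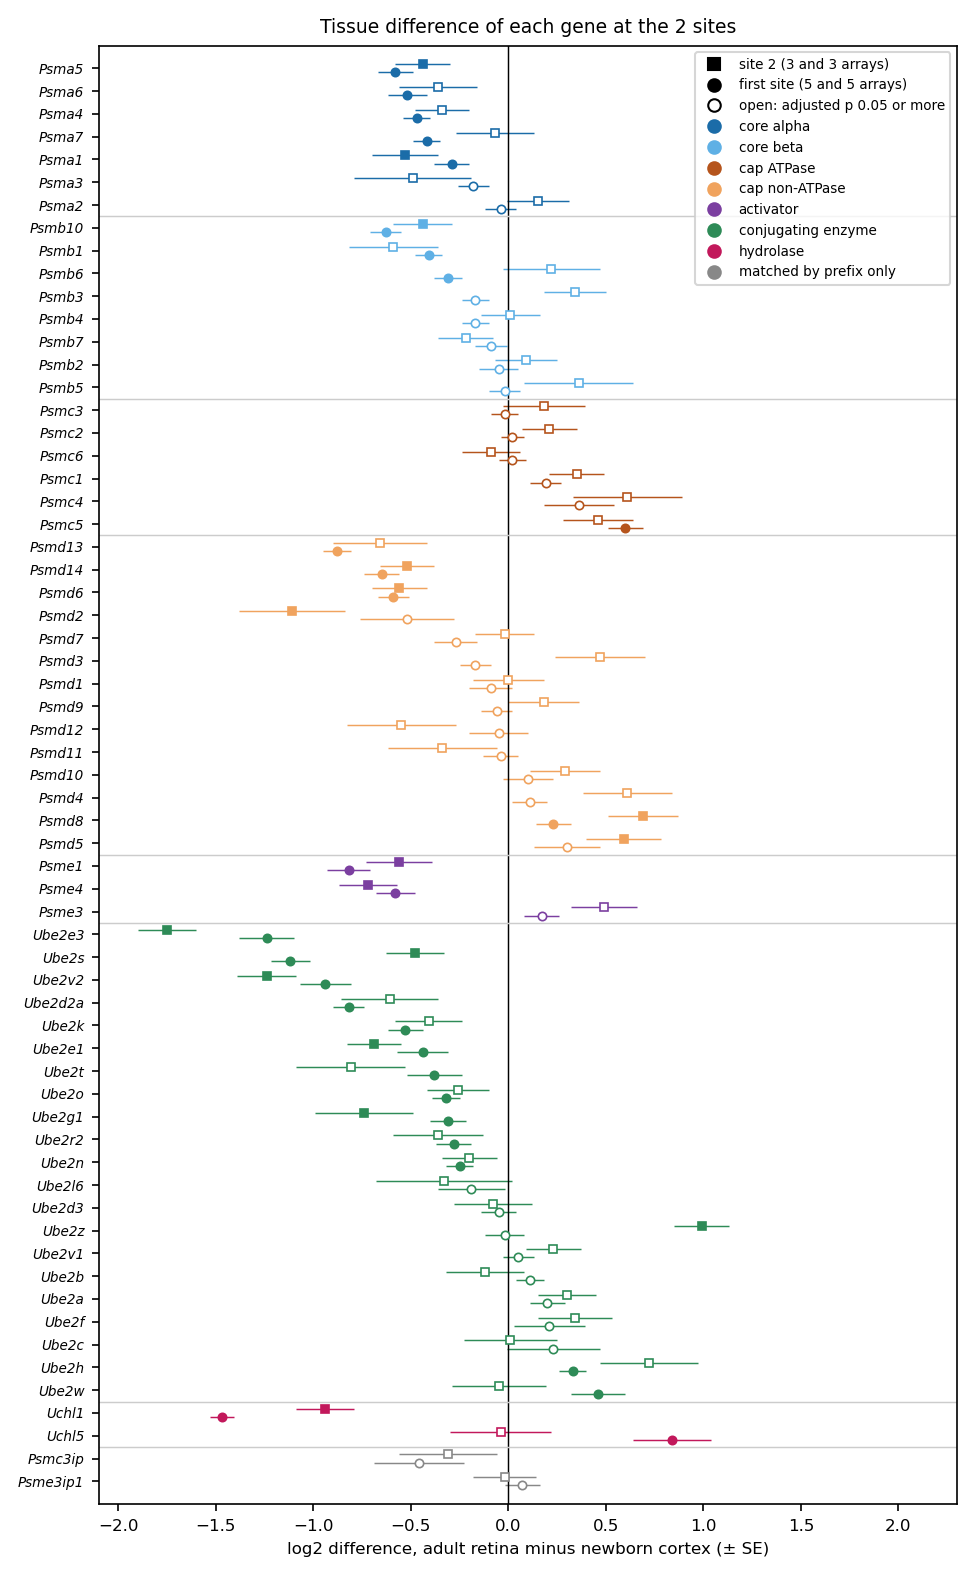
Log2 difference between adult retina and newborn cortex (x axis, ± SE) for each of the 63 genes, grouped by class, with site 2 as squares and the first site as circles; filled symbols passed the limma adjusted p of 0.05. At the first site all 15 core subunits lie left of 0 (median -0.29), while the 20 cap genes lie on both sides (median -0.03).

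The classes differed in their balance. Of all probe sets 25.2% were called lower and 21.9% higher in retina at the first site. Above the median signal the shares were 35.6% and 33.4%. All 15 core subunits had a negative difference at the first site and 8 of them were called lower, with a median of -0.29. Without centring of the arrays 12 of the 15 were negative and 2 called lower, and with quantile normalization 13 were negative and 8 called. In these settings 35.5% and 48.6% of all probe sets were called in either direction. The 20 cap genes had a median of -0.03, with 2 called higher and 3 lower. The 21 conjugating enzymes had a median of -0.25, with 2 called higher and 11 lower. The difference between these class medians was not tested.

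Among the alpha subunits, which form the gate of the core, 5 of 7 were called lower in retina at the first site, against 25.2% of all probe sets. Psma5 fell most. Its scaled intensity was 641.5, 660.5, 591.8, 737.5 and 502.5 on the retina arrays, against 939.7, 995.9, 905.3, 865.9 and 1023.3 on the cortex arrays, so every retina array lay below every cortex array. It was 1.5-fold lower in retina (log2 difference -0.58 ± 0.09, SE, n = 5 each; limma adjusted p = 5.6e-05). Psma6 (-0.52 ± 0.10), Psma4 (-0.47 ± 0.07), Psma7 (-0.42 ± 0.07) and Psma1 (-0.29 ± 0.09) were also called. Psma2 (-0.04 ± 0.08) and Psma3 (-0.18 ± 0.08, adjusted p = 0.094) were not. Psma3 is among the brightest of these probe sets, with 2753.5, 2864.0, 2492.1, 3164.6 and 2595.4 in retina against 3517.0, 2866.3, 3028.3, 3276.6 and 3084.4 in cortex. The 2 groups of Psma3 values overlapped.

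The beta subunits include the proteolytic sites, and here the standard catalytic subunits moved less than the inducible Psmb10. Psmb10, which takes the place of Psmb7 in the immunoproteasome, had a scaled intensity of 230.9, 205.3, 233.0, 194.4 and 237.8 in retina, against 338.5, 348.0, 350.4, 375.1 and 341.7 in cortex. The groups did not overlap, and Psmb10 was 1.55-fold lower in retina (-0.63 ± 0.08, SE, n = 5 each; limma adjusted p = 4.4e-06). Psmb6, the subunit with caspase-like activity, had 1118.1, 1073.7, 1187.5, 1069.5 and 946.6 in retina, against 1298.9, 1336.8, 1320.4, 1350.1 and 1443.6 in cortex. Its retina arrays also lay below all cortex arrays, and it was 1.24-fold lower (-0.31 ± 0.07; adjusted p = 0.0022). Without centring the difference of Psmb6 was -0.23 and was not called.

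Psmb5, the subunit with chymotrypsin-like activity, did not pass the test. It had 1540.7, 1388.8, 1422.3, 1432.4 and 1215.3 in retina, against 1397.3, 1302.7, 1403.0, 1497.6 and 1541.3 in cortex, and its log2 difference was -0.02 with a 95% interval from -0.20 to 0.15. Psmb7, the subunit with trypsin-like activity, had 1183.7, 1140.5, 1168.2, 1190.5 and 1081.0 in retina, against 1272.4, 1131.4, 1131.3, 1300.0 and 1370.0 in cortex. Its difference was -0.09, with an interval from -0.25 to 0.07. The groups overlapped for both genes. Of the structural beta subunits Psmb1 was called lower (-0.41 ± 0.07), and Psmb4 (-0.17 ± 0.07), Psmb3 (-0.17 ± 0.07) and Psmb2 (-0.05 ± 0.10) were not called.

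The excluded immunoproteasome subunits give the context of Psmb10. Psmb8, the inducible counterpart of Psmb5, exceeded its cortex level by a log2 difference of 1.39 ± 0.19 at site 2 and by 1.07 ± 0.21 at the first site, the direction opposite to that of Psmb10. Psmb9, the counterpart of Psmb6, lay at or under the background floor on all first-site arrays of both tissues. Of the 6 measured genes for the induced immunoproteasome and peptide transport, 2 were called higher and 0 lower at the first site. Over all probe sets the shares were 21.9% and 25.2%. Tapbp, the chaperone that joins peptide transporter and class I molecules, was higher by 1.97 ± 0.08.

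Of the 6 ATPases that unfold substrates, 5 had a positive difference at the first site and 1 passed the test, as did 47.1% of all probe sets. Psmc5 had a scaled intensity of 1049.7, 979.1, 1020.7, 1113.6 and 866.1 in retina, against 661.1, 596.9, 602.8, 758.4 and 706.4 in cortex. All retina values of Psmc5 exceeded all cortex values, and it was 1.51-fold higher (0.60 ± 0.09, SE, n = 5 each; limma adjusted p = 3.3e-05). A dimmer probe set of Psmc5, at or under the floor on 14 of the 16 arrays, differed by 0.12 ± 0.17. Psmc4 (0.36 ± 0.18), Psmc1 (0.19 ± 0.08), Psmc2 (0.02 ± 0.06), Psmc6 (0.02 ± 0.07) and Psmc3 (-0.02 ± 0.07) did not pass.

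Of the 14 other cap genes, 3 were called lower and 1 higher in retina at the first site, against 25.2% and 21.9% of all probe sets. Psmd13, a structural subunit of the lid, had 434.1, 420.5, 402.9, 449.2 and 359.7 in retina, against 746.8, 805.7, 734.6, 788.3 and 799.4 in cortex. The groups of Psmd13 values were far apart, and it was 1.84-fold lower in retina (-0.88 ± 0.07, SE, n = 5 each; limma adjusted p = 4e-08). Psmd14, the deubiquitinase of the lid (-0.65 ± 0.09), and Psmd6, another lid subunit (-0.59 ± 0.08), were the others called lower.

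Psmd8, a lid subunit that completes the assembly of the cap, went the other way. It had 655.6, 737.8, 603.7, 721.2 and 532.2 in retina, against 513.6, 587.2, 556.1, 515.6 and 582.3 in cortex. The groups overlapped, and Psmd8 was 1.18-fold higher (0.23 ± 0.09; limma adjusted p = 0.041), a call lost under 9 of 18 alternatives. The assembly chaperones of the cap base, Psmd5 (0.30 ± 0.17), Psmd10 (0.10 ± 0.13) and Psmd9 (-0.06 ± 0.08), were not called. Nor were the ubiquitin receptor Psmd4 (0.11 ± 0.09), the scaffolds Psmd1 (-0.09 ± 0.11) and Psmd2 (-0.52 ± 0.24), and Psmd3 (-0.17 ± 0.08), Psmd7 (-0.27 ± 0.11), Psmd11 (-0.04 ± 0.09) and Psmd12 (-0.05 ± 0.15).

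The activators open the core without the ubiquitin-dependent cap. Psme1, a subunit of the interferon-inducible activator, had a scaled intensity of 263.4, 426.5, 286.3, 390.4 and 368.1 in retina, against 610.4, 733.4, 572.9, 598.0 and 588.8 in cortex. The groups did not overlap, and Psme1 was 1.77-fold lower in retina (-0.82 ± 0.11, SE, n = 5 each; limma adjusted p = 1.1e-05). A dim probe set of Psme1, at or under the floor on 15 arrays, differed by -0.09 ± 0.19. Psme4, the large single-chain activator, was also lower (-0.58 ± 0.10), whereas Psme3, the nuclear activator, was not called (0.17 ± 0.09).

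**Figure D2:**
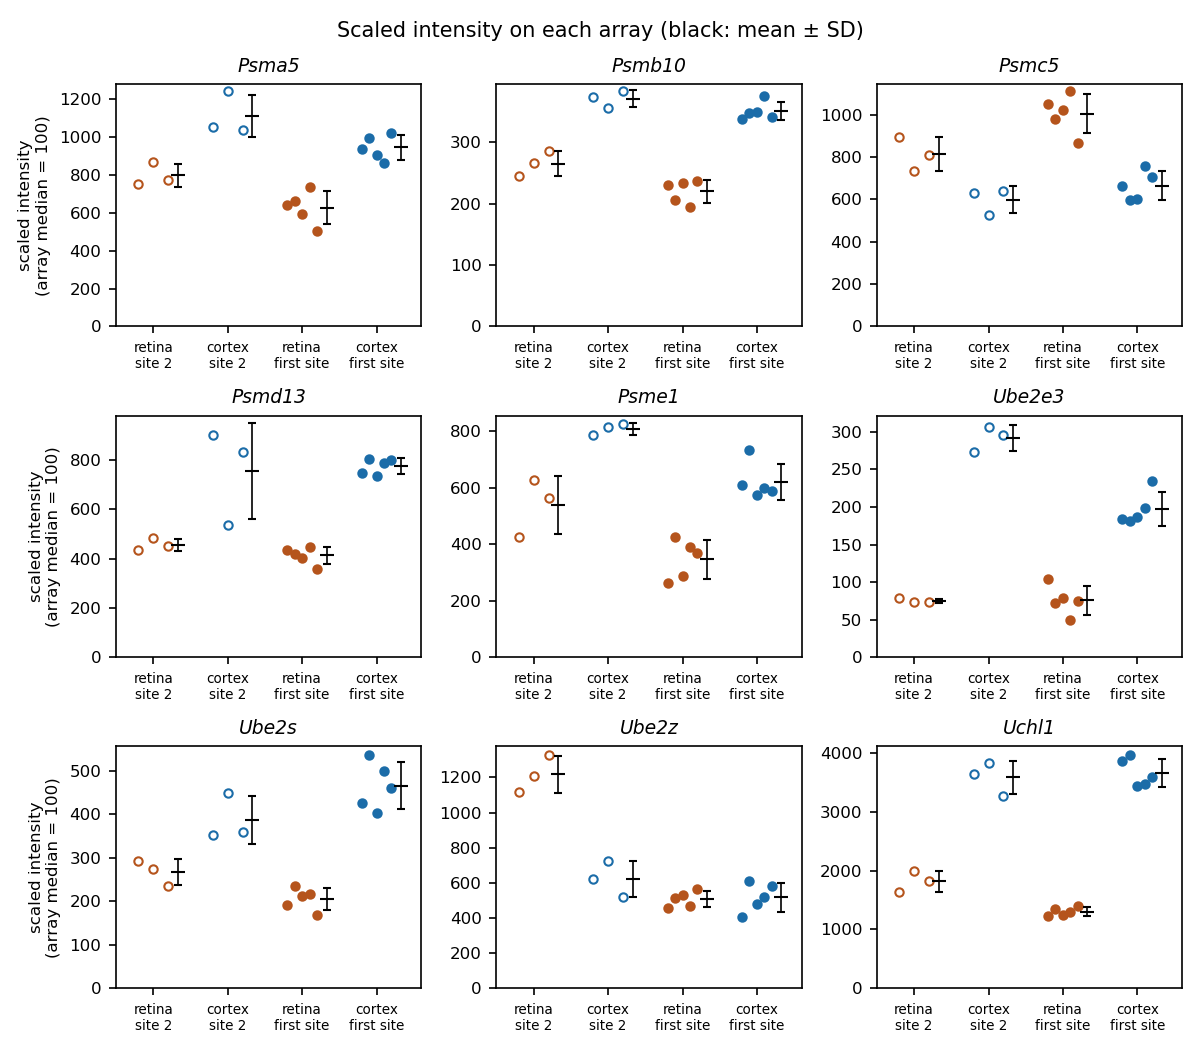
Scaled intensity (y axis, array median = 100, from 0) on each array for 9 genes, with retina in orange and cortex in blue, open circles for site 2 and filled circles for the first site, and black bars for the mean ± SD. Uchl1 lies between 1227.9 and 1394.0 on the first-site retina arrays and between 3432.8 and 3973.2 on the first-site cortex arrays, and Ube2z is highest on the 3 site 2 retina arrays.

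Conjugating enzymes gave the largest decreases after Uchl1. Ube2e3, an enzyme that modifies substrates with single ubiquitins, had 103.9, 72.1, 78.5, 49.5 and 74.9 in retina, against 183.8, 181.5, 186.7, 198.4 and 235.3 in cortex at the first site. No retina array reached the lowest cortex array, and Ube2e3 was 2.37-fold lower in retina (-1.24 ± 0.14, SE, n = 5 each; limma adjusted p = 1.5e-06). Ube2s, which extends ubiquitin chains for the anaphase-promoting complex, had 192.4, 236.1, 212.6, 217.0 and 167.8 in retina, against 426.6, 537.6, 404.0, 500.5 and 459.9 in cortex. The groups were again apart, and Ube2s was 2.18-fold lower (-1.12 ± 0.10; adjusted p = 7.3e-08).

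Ube2n builds chains together with an inactive partner, Ube2v1 or Ube2v2, and the 2 partners behaved unequally. At the first site Ube2v2 was 1.93-fold lower in retina (-0.94 ± 0.13, SE; limma adjusted p = 8.6e-06), averaging 149.8 in scaled intensity on the 5 retina arrays and 306.1 on the 5 cortex arrays, while the difference of Ube2v1 was 0.05 ± 0.08 and was not called. Ube2n itself was lower by a log2 difference of -0.25 ± 0.07. A dim probe set of Ube2v2, at or under the floor on 15 arrays, differed by 0.17 ± 0.15.

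The other conjugating enzymes called lower at the first site were Ube2d2a (-0.82 ± 0.08), a general-purpose enzyme used by many ligases, Ube2k (-0.53 ± 0.09), Ube2e1 (-0.44 ± 0.13), Ube2t (-0.38 ± 0.14), which acts in Fanconi anaemia DNA repair and whose call was lost under 9 of 17 alternatives, Ube2o (-0.32 ± 0.07), Ube2g1 (-0.31 ± 0.09), which serves degradation from the endoplasmic reticulum, and Ube2r2 (-0.28 ± 0.09), a partner of cullin ligases. Ube2t lay at or under the floor on 2 of 5 arrays of each tissue. Ube2k gave -0.43 ± 0.08 on its other probe set. The probe sets of Ube2o and Ube2d2a differed in size: Ube2o had -1.01 ± 0.11 and -0.75 ± 0.19 on its other probe sets, and Ube2d2a had -0.23 ± 0.15, which was not called.

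Ube2w and Ube2h were the conjugating enzymes called higher in retina. Ube2w, which attaches ubiquitin to protein N termini, had 90.1, 70.4, 80.1, 78.0 and 65.2 in retina, against 61.0, 35.8, 42.9, 64.6 and 56.4 in cortex. Every retina value lay above every cortex value by a narrow margin, and Ube2w was 1.38-fold higher (0.46 ± 0.14, SE, n = 5 each; limma adjusted p = 0.014). Ube2h was higher by 0.33 ± 0.07 on its brighter probe set, while its other probe set differed by -0.03 ± 0.10. The enzymes Ube2a (0.20 ± 0.09) and Ube2b (0.11 ± 0.07), which act in DNA damage tolerance, Ube2f (0.21 ± 0.18), which conjugates Nedd8, Ube2c (0.23 ± 0.24), Ube2d3 (-0.05 ± 0.09) and Ube2z (-0.02 ± 0.10) were not called. Ube2l6, the enzyme for Isg15, was at or under the floor on all 5 first-site retina arrays and on 4 of the 5 cortex arrays.

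Ube2s, Ube2c and Ube2t serve the cell cycle or replication-coupled repair, so the genes of dividing cells are given beside them. In retina at the first site, 25.2% of all probe sets were called lower and 21.9% higher. Of 16 measured dividing-cell genes, 13 were called lower and 0 higher there. Their summed scaled intensity ran from 2107 to 2204 on the retina arrays and from 3021 to 3414 on the cortex arrays, with 3 genes (Top2a, Bub1 and Mcm6) at or under the floor in retina and 1 (Mcm6) in cortex. Top2a averaged 3.3 in retina and 71.0 in cortex. At site 2, 10 of the 16 were called lower and 0 higher, against 15.9% and 16.7% of all probe sets. The sums of the 16 genes there ran from 1999 to 2197 in retina and from 3333 to 4770 in cortex. Their part in the Ube2s and Ube2t differences was not tested. Ube2c, which starts the chains that Ube2s extends, averaged 117.6 on the first-site retina arrays and 100.5 on the first-site cortex arrays.

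The 2 hydrolases went in opposite directions at the first site. Uchl1, an abundant neuronal deubiquitinating enzyme, had a scaled intensity of 1227.9, 1356.7, 1251.1, 1295.7 and 1394.0 in retina, against 3860.4, 3973.2, 3432.8, 3475.0 and 3587.3 in cortex. The groups were separated by a wide gap, and Uchl1 was 2.77-fold lower in retina (-1.47 ± 0.06, SE, n = 5 each; limma adjusted p = 9.7e-12). Uchl5, which binds the cap and trims chains there, had 255.5, 245.9, 195.9, 309.1 and 170.4 in retina, against 150.6, 75.2, 99.8, 193.6 and 121.5 in cortex. Its groups overlapped, and it was 1.79-fold higher (0.84 ± 0.20; adjusted p = 0.002).

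Genes expressed by neurons of many regions did not move one way beside Uchl1. Of 8 measured, 4 were called higher in retina at the first site, led by Eno2 (2.50), and 4 lower, led by Stmn2 (-2.86). Of all probe sets 21.9% were called higher and 25.2% lower there. The summed scaled intensity of the 8 genes ran from 12818 to 13761 in retina and from 17220 to 22336 in cortex on the first-site arrays, with no gene at or under the floor. At site 2, 3 were called higher and 3 lower, against 16.7% and 15.9% of all probe sets. The sums of the 8 genes there ran from 16049 to 18017 in retina and from 14878 to 20725 in cortex. Their part in the Uchl1 difference was not tested.

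At site 2, with 3 arrays per tissue, 17 of the 63 genes were called, 3 higher and 14 lower in retina. Over all probe sets 32.5% were called, 16.7% higher and 15.9% lower. Without cortex replicate 2, 28 genes were called, 9 higher and 19 lower, while 47.9% of all probe sets were called and their median was 0.15, against -0.02 with all arrays. The count was 9 without retina replicate 1 or 2 and 7 without retina replicate 3. Of all probe sets 25.5%, 24.6% and 25.2% were called without retina replicates 1, 2 and 3. The count was 31 when the spread was estimated from all 16 arrays together, with 40.8% of all probe sets called. Of the core subunits 3 were called lower and none higher by limma (5 at an unadjusted p under 0.05), with a median of -0.22 over the 15, of which 9 were negative and 6 positive. The cap genes had a median of 0.18, with 2 called higher and 3 lower, and the conjugating enzymes a median of -0.26, with 1 called higher and 5 lower. Without cortex replicate 2 the core had 6 called lower and 0 higher (median -0.17), the cap 5 higher and 4 lower (median 0.14) and the conjugating enzymes 3 higher and 6 lower (median -0.25). The tissues' arrays did not overlap for 11 genes higher and 21 lower in retina, against 22.0% and 22.2% of all probe sets (44.2% in either direction).

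Ube2e3 was the most strongly reduced gene at site 2. It had 78.3, 73.1 and 73.0 in retina, against 273.0, 306.8 and 295.3 in cortex, which is 3.37-fold lower in retina (-1.75 ± 0.15, SE, n = 3 each; limma adjusted p = 1.1e-05). Uchl1 had 1637.9, 2000.3 and 1824.5 in retina, against 3650.4, 3834.8 and 3274.2 in cortex, and was 1.92-fold lower (-0.94 ± 0.15; adjusted p = 0.00071). Neither gene's groups overlapped. Ube2v2 was 2.36-fold lower (-1.24 ± 0.15). Without cortex replicate 2 the differences were -1.78 for Ube2e3, -0.99 for Uchl1 and -1.15 for Ube2v2. Psmd2, a scaffold of the cap base, had 10.0, 10.1 and 9.8 in retina, against 44.6, 14.4 and 50.9 in cortex. Its 3 retina values lay at or under the floor, as did cortex replicate 2 (14.4, with a scaled floor of 19.3). Psmd2 was at least 1.87-fold lower in retina (limma adjusted p = 0.0092). Its fitted log2 difference was -1.28 without cortex replicate 2 and -1.11 with it.

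Psma5, Psmb10, Psme1, Psmd8 and Psmd5 were also called at site 2. Psma5 had 754.4, 868.1 and 771.7 in retina, against 1053.6, 1242.0 and 1040.6 in cortex (-0.44 ± 0.14, SE, n = 3 each; limma adjusted p = 0.031). Psmb10 had 244.8, 266.0 and 285.5 in retina, against 374.3, 356.0 and 383.1 in cortex (-0.44 ± 0.15; adjusted p = 0.049). Psme1 had 425.1, 626.7 and 564.8 in retina, against 785.3, 813.3 and 823.7 in cortex (-0.56 ± 0.17; adjusted p = 0.031). All 3 had every retina array below every cortex array. Psmd8 had 867.9, 1010.1 and 961.4 in retina, against 691.3, 519.3 and 575.2 in cortex, and was 1.61-fold higher (0.69 ± 0.18; adjusted p = 0.013). Psmd5 was higher as well (0.59 ± 0.19; adjusted p = 0.036). Without cortex replicate 2 the differences were -0.45 for Psma5, -0.54 for Psmb10, -0.64 for Psme1, 0.52 for Psmd8 and 0.38 for Psmd5, all called. Several site 2 calls were lost under many of the 14 alternatives: those of Psma1, Psma5 and Psmb10 under 9, that of Ube2s under 8, those of Psmd5, Psme1 and Ube2g1 under 7 and those of Psmd6 and Psmd14 under 5.

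Several site 2 results turned on cortex replicate 2. Psmd13 had 434.7, 482.1 and 449.8 in retina, against 900.9, 535.0 and 832.6 in cortex. Its difference of -0.66 ± 0.24 was not called (limma adjusted p = 0.058), and without that array it was -0.97 and was called. Psma3 had 2628.7, 2876.1 and 2907.2 in retina, against 2770.8, 8346.4 and 2823.8 in cortex, and its difference was -0.06 without the array and -0.49 with it, called in neither case.

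The standard catalytic subunits showed the same array. Psmb5 had 1798.5, 1893.3 and 1900.6 in retina, against 1840.8, 957.3 and 1813.7 in cortex, a difference of -0.04 without the array and 0.36 ± 0.28 with it. Psmb6 had 1252.5, 1398.6 and 1384.2 in retina, against 1530.4, 831.1 and 1273.0 in cortex, a difference of -0.12 without it and 0.22 ± 0.25 with it. Neither was called, and the first-site decrease of Psmb6 was not called at site 2. Psmb7 had 1101.8, 1282.7 and 1228.7 in retina, against 1344.1, 1714.7 and 1269.5 in cortex (-0.22 ± 0.14; limma adjusted p = 0.30), and differed by -0.18 without cortex replicate 2.

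Of the 5 genes called higher in retina at the first site, Psmd8 was also called at site 2, and Psmc5, Uchl5, Ube2w and Ube2h were not when all arrays were used. Without cortex replicate 2 Ube2h was called higher as well (0.38; limma adjusted p = 0.0074, against 0.72 and 0.055 with it). Ube2h had 1015.7, 1009.3 and 941.8 in retina at site 2, against 751.2, 411.8 and 706.2 in cortex, and its groups did not overlap. Psmc5 had 895.5, 734.5 and 811.0 in retina, against 631.7, 524.1 and 641.8 in cortex at site 2. Its groups did not overlap, and the difference of 0.46 ± 0.18 had a limma adjusted p of 0.08. It was 0.29 without cortex replicate 2 and was not called. Uchl5 had 187.7, 259.7 and 196.2 in retina, against 154.2, 384.9 and 190.3 in cortex, and differed by -0.04 ± 0.26, or by 0.26 without cortex replicate 2. Ube2w had 50.8, 50.5 and 48.4 in retina, against 42.1, 75.7 and 46.7 in cortex, a difference of -0.05 ± 0.24, or of 0.19 without that array. The groups of Uchl5 and Ube2w overlapped.

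Across the sites, 13 genes were called lower in retina at both: the core subunits Psma1, Psma5 and Psmb10, the lid subunits Psmd6 and Psmd14, the activators Psme1 and Psme4, the conjugating enzymes Ube2e1, Ube2e3, Ube2g1, Ube2s and Ube2v2, and the hydrolase Uchl1. Of these, Psma1, Psma5, Psmb10, Psme1, Ube2g1 and Ube2s have site 2 calls that were lost under 7 to 9 of the 14 alternatives. Psmd8 was called higher at both, 0 genes were called in opposite directions and 30 were called at neither. The difference had the same sign at both sites for 48 of the 63 genes (76.2%), against 76.0% of all probe sets. The site 2 sign matched for 27 of the 30 genes called from the first-site arrays. Over the 63 genes Pearson's r between the sites was 0.76 and Spearman's rho 0.81, as a description of genes read on technical replicate arrays.

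**Figure D3:**
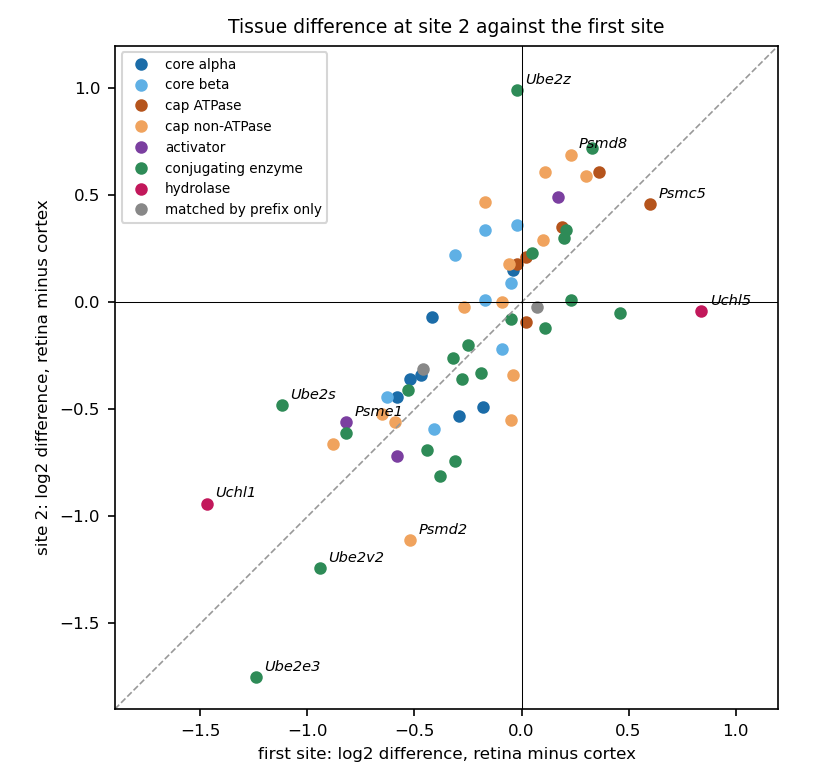
Log2 difference between retina and cortex at site 2 (y axis) against the first site (x axis) for the 63 genes, coloured by class; the dashed line marks equal differences. Uchl1 and Ube2s lie above the line (-0.94 against -1.47 and -0.48 against -1.12), and Ube2z lies at 0.99 at site 2 and -0.02 at the first site.

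The tissue difference itself differed between the sites for 3 genes, by the interaction term of a fit over the 16 arrays, all with a more positive retina-minus-cortex difference at site 2. Over all probe sets 3.36% were called, 2.07% in that direction, and of the 63 genes 10 had an unadjusted p under 0.05. The count was 1 without first-site retina replicate 3, first-site cortex replicate 1 or site 2 retina replicate 2, and 5 without site 2 cortex replicate 1. In that order 2.37%, 2.27%, 1.71% and 5.32% of all probe sets were called. Ube2z, which is charged by the alternative activating enzyme Uba6, had 1117.5, 1205.3 and 1329.2 in retina, against 624.5, 724.5 and 520.6 in cortex at site 2. At the first site Ube2z had 454.2, 512.8, 530.3, 470.3 and 563.8 in retina, against 404.8, 609.7, 477.8, 517.8 and 582.2 in cortex. The retina stood clear of the cortex at site 2 and overlapped with it at the first site. Ube2z was 1.98-fold higher in retina at site 2 (0.99 ± 0.14, SE, n = 3 each), and its log2 difference there was 1.02 without cortex replicate 2. Its interaction was 1.00 ± 0.17 (limma adjusted p = 0.0014). Another probe set of Ube2z had an interaction of 0.71 ± 0.31, which was not called (adjusted p = 0.23).

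Ube2s and Uchl1 differed less between the tissues at site 2. At that site Ube2s had 292.2, 274.3 and 235.1 in retina, against 352.2, 450.1 and 359.6 in cortex, a 1.40-fold lower level in retina (-0.48 ± 0.15, SE, n = 3 each; limma adjusted p = 0.031), with a difference of -0.45 without site 2 cortex replicate 2. The interaction of Ube2s was 0.64 ± 0.17 (adjusted p = 0.041) and was lost under 19 of 24 alternatives. The interaction of Uchl1 was 0.53 ± 0.13 (adjusted p = 0.026) and was lost under 9 of 24.

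Between the laboratories, genes of the set were mostly brighter at site 2 in either tissue. In retina, 28 genes were called higher and 1 lower at site 2, against 23.2% and 12.5% of all probe sets (35.7% in either direction). Among probe sets above the median signal 37.4% were called higher, and of the 54 genes above it 25 were. With quantile normalization 14 were called higher and 5 lower, and without site 2 retina replicate 2 the counts were 17 and 0. In these settings 33.3% and 26.5% of all probe sets were called in either direction. In cortex, 11 genes were called higher and 0 lower by limma (21 in either direction at an unadjusted p under 0.05), against 10.3% and 6.40% of all probe sets (16.7% in either direction). The cortex count was 19 without site 2 cortex replicate 2 and 7 without first-site cortex replicate 2 or 3. In that order 40.1%, 14% and 13% of all probe sets were called. Of probe sets above the median signal 15.8% were called higher in cortex, and of the 54 genes above it 11 were. The median site difference over the genes was 0.32 in retina and 0.18 in cortex, against 0.04 and 0.01 over all probe sets. Over probe sets above the median signal it was 0.21 in retina and 0.1 in cortex. Laboratory, hybridisation and scanning differ together between the sites and cannot be told apart. Pool sizes were given for the first-site arrays only, so a difference in the RNA used cannot be told apart from these either.

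The activator Psme3, the assembly chaperone Psmd5 and the conjugating enzyme Ube2z were among the genes with the largest site differences in retina. Psme3 had 864.9, 839.4 and 898.1 in retina at site 2, against 441.8, 386.4, 328.9, 384.7 and 336.2 in retina at the first site. It was 2.26-fold higher at site 2 in retina (1.18 on the log2 scale; limma adjusted p = 7.8e-07) and higher by 0.86 in cortex. Psmd5 was 2.04-fold higher at site 2 in retina and higher by 0.74 in cortex, and Ube2z was 2.36-fold higher in retina and not called in cortex (0.23). All site 2 retina arrays of Psme3 and Psmd5 lay above all first-site retina arrays. Psmd5 had 891.3, 1023.3 and 987.4 in retina at site 2, against 525.8, 639.7, 414.3, 505.7 and 304.3 in retina at the first site. Called higher at site 2 in retina were 23.2% of all probe sets and 37.4% of those above the median signal. In retina all 3 activators, 11 of the 20 cap genes, 5 of the 15 core subunits and 6 of the 21 conjugating enzymes were called higher at site 2. Ube2w was the gene called lower (-0.50 ± 0.19; adjusted p = 0.042).

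**Figure D4:**
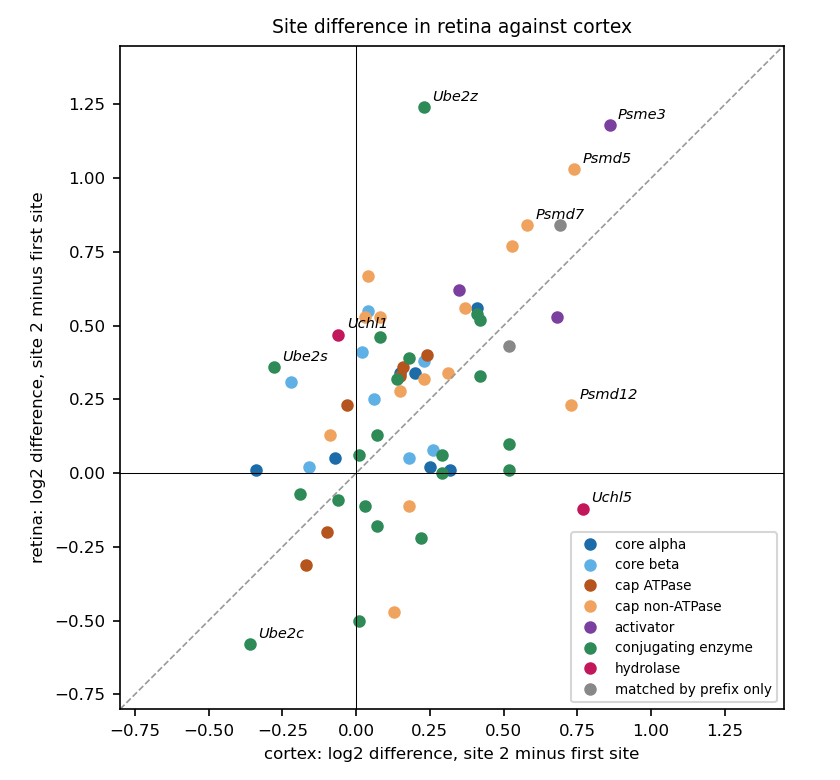
Log2 difference between site 2 and the first site in retina (y axis) against cortex (x axis) for the 63 genes, coloured by class; the dashed line marks equal shifts. Most genes lie to the right of and above 0, and Ube2z lies at 1.24 in retina and 0.23 in cortex.

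The wider pathway had calls in both directions between the tissues, as had all probe sets. Over all probe sets 21.9% were called higher and 25.2% lower in retina at the first site, and 16.7% and 15.9% at site 2. Of 46 measured ligase genes and ligase subunits 12 were called higher and 15 lower at the first site. At site 2 the balance was 10 higher and 5 lower. Unless site 2 is named, the values below are from the first site. Anapc5, a subunit of the anaphase-promoting complex with which Ube2s works, gave the largest decrease (-1.92 ± 0.09), and Cul3, a cullin scaffold, and Rnf13, a membrane-bound ligase, were higher by 1.03 ± 0.08 and 1.03 ± 0.18. Of 30 deubiquitinating and related protease genes 8 were higher and 12 lower, and at site 2 the counts were 9 higher and 4 lower. Tnfaip3, an editor of ubiquitin chains in inflammatory signalling, averaged 358.6 in retina and lay at or under the floor on all first-site cortex arrays. Usp22, a histone deubiquitinase, was lower by a log2 difference of -2.29 ± 0.12. At site 2 the difference of Usp22 was -1.01 and was not called (limma adjusted p = 0.13). Of 12 measured genes for assembly factors, shuttling receptors, associated proteins and transcription factors of the proteasome genes, 3 were higher and 3 lower. The assembly factor Psmg2 and the transcription factors Nfe2l1 and Nfe2l2 were higher, and Psmg4, Rad23b and Ubqln2 were lower. Nfe2l2, which binds the antioxidant element, was higher by a log2 difference of 1.5 ± 0.13, while Rad23b, a shuttling ubiquitin receptor, was lower (-0.77 ± 0.08).

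Smaller lists are given for the first site, where 47.1% of all probe sets were called, and hold too few genes to compare with that share. Of 4 activating enzyme genes 1 was lower, Sae1 (-0.30 ± 0.09), a subunit of the SUMO activating enzyme. Of 6 genes for ubiquitin-like proteins 1 was higher and 1 lower: Isg15 by 1.15 ± 0.21 and Ufm1 by -0.73 ± 0.12. Of 8 genes for the segregase that extracts ubiquitinated proteins and its adaptors 1 was higher, Ubxn4 (0.48 ± 0.08), and 2 were lower, with Faf1 at -0.50 ± 0.13. At site 2, where 32.5% of all probe sets were called, 0 of the 4 activating enzyme genes and 0 of the 8 segregase genes were. The site 2 difference was -0.16 for Sae1, 0.06 for Ubxn4 and 0.46 for Faf1, the last opposite in sign. Isg15 (0.82) and Ufm1 (-0.72) were called at site 2 in the same directions. Psmc3ip was at or under the floor on all 5 first-site retina arrays and on 3 of the 5 cortex arrays, and Psme3ip1 was not called (0.07 ± 0.09).

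Marker genes of other cell types were also measured. In the first-site arrays 5 of 6 lens genes and 4 of 5 pigment epithelium genes were higher in retina, against 21.9% of all probe sets. In contrast, 3 of 4 erythroid genes and 4 of 8 genes of microglia and macrophages were lower, against 25.2% of all probe sets. Endothelial genes went both ways, with 2 of 6 higher and 3 lower. The summed scaled intensity of the lens genes ran from 1602 to 1801 in retina and from 545 to 712 in cortex, that of the pigment epithelium genes from 767 to 904 in retina and from 127 to 172 in cortex, and that of the erythroid genes from 780 to 893 in retina and from 3323 to 3711 in cortex. For microglia and macrophage genes it ran from 656 to 724 in retina and from 834 to 918 in cortex. Their part in the differences of the proteasome and conjugation genes was not tested.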

How the data were processed

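Biotin-labelled cRNA was made for each array from about 10 µg of total RNA, per the labels' protocols. The authors deposited linear intensities, 1 per probe set and array. How they summarised and scaled the probes is not given in the sources used here. Of 12488 probe sets, 66 controls were left out, leaving 12422. Symbols were read from the platform annotation. All 63 symbols were found in RefSeq (GRCm38.p6).

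Values were turned into log2(intensity + 16), which understates changes of dim probe sets, and centred on each array's median. limma 3.58.1 in R 4.3.3 (lmFit, eBayes with an intensity trend) gave two-sided tests with Benjamini-Hochberg adjustment over all probe sets, called at 0.05. Tissues were compared within each site, and sites and the interaction in a fit over the 16 arrays with a mean for each tissue and site. The floor used 9 dap, lys and phe and 4 yeast controls, chosen after seeing the data because the thr and trpn controls were bright at the first site. A fold against a group at the floor on all arrays is given as "at least".

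The genes, classes and lists were chosen with earlier results of these data known. All 63 are named. By rule, values per array are given for the called gene with the largest first-site difference in each direction in each class. The rule adds the genes called by the interaction, the brightest 2, the catalytic subunits and Uchl1. From the lists it names the genes with the largest called first-site difference in each direction. Outside the rule, and with the results known, values per array are given for Psmd2 and Ube2h at site 2 and for Psme3 and Psmd5 between sites. Some further list genes are also named outside it. The alternatives tried were other pseudocounts (1 and 50), leaving arrays uncentred, normalizing quantiles, scaling to a median of 100 first, brighter probe sets only, no intensity trend, a replicate block, the mean of a gene's probe sets, all arrays in one fit and leaving out each array. For the interaction of single genes they were chosen after seeing the data. The mean of a gene's probe sets and the fit of all arrays together were not among the alternatives counted for single genes. Simulated data were used to check the fits. The number of arrays limits the precision.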

Additional observations from a re-analysis of the deposited data

Results flagged for a closer look

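The tissue difference of 3 genes differed between the sites by the interaction test, with values of 1.00 for Ube2z, 0.64 for Ube2s and 0.53 for Uchl1 on the log2 scale (limma adjusted p = 0.0014, 0.041 and 0.026). Without centring none of the 3 was called.

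In 8 of 126 groups of 5 first-site arrays (6.35%), 1 array lay far from the other 4 by Dixon's test, which flags about 5% by chance. The retina values were Psma4 at 1086.2 on replicate 5 (others 1174.9 to 1198.3), Psmd1 at 719.2 on replicate 5 (others 942.9 to 1026.4), Psmb2 at 946.5 on replicate 2 (others 792.9 to 828.4) and Ube2k at 429.9 on replicate 2 (others 351.4 to 373.9). The cortex values were Psmb4 at 2709.7 on replicate 4 (others 2235.9 to 2284.6), Psme1 at 733.4 on replicate 2 (others 572.9 to 610.4), Ube2l6 at 31.5 on replicate 1 (others 13.7 to 16.2) and Ube2r2 at 1909.3 on replicate 5 (others 1387.5 to 1509.5).

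Outside the measured genes, the 6 thr and trpn control probe sets were bright at the first site. Their highest deposited intensity was 380.2, 1049.4, 3946.2, 5984.6 and 9691.1 on retina replicates 1 to 5 and 218.9, 555.6, 2332.5, 5148.0 and 10207 on cortex replicates 1 to 5, so the controls had the same order by replicate number in both tissues. They did not exceed 25.6 at site 2.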

How the results depend on the processing

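Without centring of the arrays the number of genes called fell to 15 at the first site (limma), to 0 at site 2 (2 at an unadjusted p under 0.05), to 1 between sites in retina, to 0 between sites in cortex (5 unadjusted) and to 0 for the interaction (0 unadjusted), and the first-site core median was -0.21. In that setting the share of all probe sets called was 35.5% at the first site and 6.29% at site 2. It was 2.33% between sites in retina, 0.636% between sites in cortex and 0.274% for the interaction. That setting also gave a median interaction over all probe sets of -0.10, against 0.04 with centring. At site 2, 10 genes (27.9% of all probe sets) were called with no intensity trend and 31 (40.8%) with all arrays in one fit. Between sites in retina, 19 were called with quantile normalization, and 33.3% of all probe sets. The interaction was called for 1 gene with a pseudocount of 50, with quantile normalization, with no intensity trend and with the replicate block. In that order it was called for 2.3%, 3.58%, 2.05% and 2.25% of all probe sets. Over all probe sets same-numbered arrays did not deviate together (correlations of -0.19 to 0.08), although the thr and trpn controls of the first site followed the number in both tissues, and the numbers were not taken as pairs. With the replicate block 30 genes were called at the first site, 23 at site 2, 25 between sites in retina and 9 in cortex. The shares of all probe sets were 46.5%, 34.9%, 31.3% and 13% in that order.

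Leaving out 1 array gave 28 to 32 calls at the first site, 7 to 28 at site 2, 17 to 28 between sites in retina, 7 to 19 between sites in cortex and 1 to 5 for the interaction. The first-site class medians ran from -0.33 to -0.24 for the core, -0.05 to 0.02 for the cap and -0.29 to -0.22 for conjugating enzymes, and at site 2 from -0.26 to -0.16, 0.11 to 0.19 and -0.33 to -0.20. Where a group was left with 2 arrays the spread rests on few arrays. For the single-gene tissue differences at each site and the interaction, 3284 values under the alternatives kept their side of the threshold, 142 lost and 75 gained a call, and no called difference changed direction. Single-gene values from the mean of a gene's probe sets and from all arrays in one fit are not among these. Single-gene differences between the sites were not recomputed under the alternatives. The cause of these changes was not tested.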
